A study of Bos taurus with 2 samples.

Results

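Cluster 9, like cluster 7, was a population that the study named fibro-adipogenic progenitors (FAPs) among cultured bovine satellite cells. The members of cluster 9 were the cells that the authors' graph-based clustering had placed there. They numbered 1080 of 19096 cells, which is 5.66% (95% exact binomial interval 5.33 to 5.99). The cells came from the longissimus muscle of 1 male Holstein calf aged 2 weeks. They had been released with pronase, enriched by differential centrifugation and grown in medium with fetal bovine serum for 1 week, with no treatment and no second condition. Both single-cell RNA sequencing libraries were made from the same cell culture, so values differ between library 1 and library 2 through cell capture, library making and sequencing, and nothing here measures differences between animals. The cells were a whole culture rather than a sorted population.

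FAPs are mesenchymal cells that lie between muscle fibers. They carry platelet derived growth factor receptor alpha (PDGFRA), make extracellular matrix, release factors that act on satellite cells during regeneration, and can become fibroblasts or adipocytes. Commitment toward fat is driven early by the zinc finger protein ZNF423 and the early B cell factors EBF1 and EBF2, then by peroxisome proliferator activated receptor gamma (PPARG) with C/EBP proteins. Synthesis of fatty acids, lipid droplets, and finally leptin (LEP) and adiponectin (ADIPOQ) come later. In cattle these cells are studied as a source of intramuscular fat.

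Library 1 contributed 586 cells, 5.90% of that library, and library 2 contributed 494 cells, 5.39%. In each cell, transcripts were counted as unique molecular identifiers (UMIs), which mark single captured RNA molecules at their 3′ ends. Cells of cluster 9 were deeply sampled, with a median of 23011 UMIs against 14522 in all other cells, and a median of 4530 detected genes against 3559. The per-cell depth within the cluster ran from 5289 to 59003 UMIs. A doublet caller marked 156 of the 1080 cells (14.4%; 15.02% in library 1 and 13.8% in library 2) as likely pairs of cells, compared with 6.88% of all other cells. Over the other clusters this share ran from 0.166% in cluster 13 to 17.2% in cluster 6. It was 12.7% in cluster 5 and 4.73% in cluster 11. Only 27 barcodes occurred in both libraries, and 2 of them had a cell in cluster 9.

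Throughout, a level is the number of UMIs of a gene per 10000 UMIs summed over the cells of 1 library, and mean ± SD is over the 2 libraries. Cluster 9 was compared with other cells on these library sums with edgeR's quasi-likelihood test, and a gene was called higher or lower at a Benjamini-Hochberg adjusted p under 0.05 together with a change of 2-fold or more. Clusters were drawn from these same counts, so a call says only that a difference exceeded the spread between 2 library preparations. Against all other cells, 894 of 13205 genes tested (6.77%) were called higher in cluster 9 and 1432 (10.8%) were called lower. Of the 894 higher genes, 322 (36.0%) had their highest level among the 15 clusters in cluster 9 in both libraries.

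The 3 markers named for these cells were first examined across the 15 clusters. PDGFRA (ENSBTAG00000007173), the receptor that defines FAPs, had a level of 1.63 in library 1 and 1.53 in library 2 (1.58 ± 0.074), against 0.179 and 0.187 in all other cells. Cluster 7 was close behind, at 1.23 and 1.74 (1.48 ± 0.36), so the libraries of clusters 7 and 9 overlapped, whereas cluster 10, next in order, had only 0.532 and 0.472. PDGFRA was thus 3.07 log2 units higher in cluster 9 than in all other cells (SE 0.057), and cluster 9 alone held 47.0% of its 8883 UMIs.

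PPARG (ENSBTAG00000001333), the transcription factor that governs adipocyte formation, had levels of 0.299 and 0.276 in cluster 9 (0.288 ± 0.017) and 0.019 and 0.020 in all other cells. The next clusters were far lower, with 0.067 and 0.107 in cluster 7 and 0.049 and 0.093 in cluster 10, and none of the libraries overlapped with those of cluster 9. The log2 fold change against all other cells was 3.85 (SE 0.084), and 761 of the 1260 PPARG UMIs (60.4%) came from cluster 9. ZNF423 (ENSBTAG00000017397), which commits cells to the adipocyte lineage ahead of PPARG, separated less. Its levels were 0.115 and 0.135 in cluster 9 (0.125 ± 0.014), 0.112 and 0.090 in cluster 7, 0.104 and 0.094 in the myocyte cluster 12, and 0.105 and 0.081 in cluster 15. Cluster 9 ranked first for ZNF423 by mean, but its library 1 differed little from library 1 of cluster 7, and only 21.3% of ZNF423 UMIs lay in it. Against all other cells the ZNF423 log2 fold change was 1.37 (SE 0.11).

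**Figure D1:**
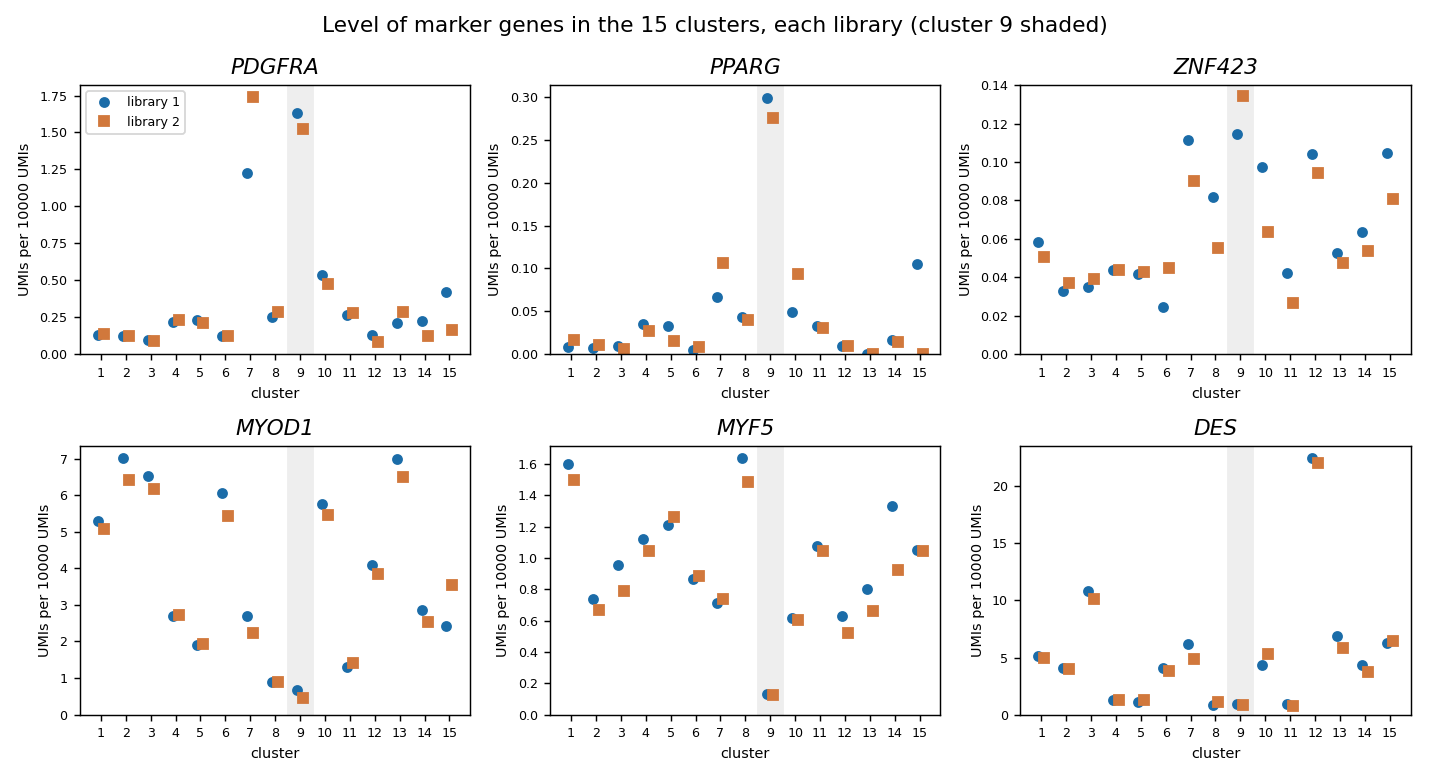
Level of 3 FAP and preadipocyte markers (top) and 3 myogenic markers (bottom) in each of the 15 clusters, in UMIs per 10000 UMIs, with a circle for library 1 and a square for library 2 and cluster 9 shaded. PDGFRA is highest in clusters 9 and 7, PPARG stands alone in cluster 9, ZNF423 is spread over several clusters, and MYOD1 and MYF5 are lowest in cluster 9.

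The markers were next followed in single cells, after each cell had been randomly thinned to 5000 UMIs so that depth was equal. No cell of cluster 9 fell below that depth. PDGFRA was detected in 50.3% of cluster 9 cells (95% exact interval 47.3 to 53.3; 50.5% in library 1 and 50% in library 2). In 613 cells of cluster 12, the differentiated myocytes that should lack the gene, it was detected in 5.06% (3.46 to 7.10); the median depth before thinning was 19113 UMIs there. PPARG was detected in 12.96% of cluster 9 cells (11.02 to 15.1) against 0.489% of cluster 12 (0.101 to 1.42). Both shares stood clear of those in the myocytes. ZNF423 did not, with 6.30% (4.92 to 7.91) against 5.22% (3.60 to 7.29), and its share was lower in cluster 9 than in cluster 12 in library 1 (4.61% against 6.21%) and higher in library 2 (8.30% against 4.23%). A difference in the share of ZNF423-positive cells between FAPs and myocytes was therefore not detectable at this depth. Without thinning, 91.8% of cluster 9 cells had a PDGFRA UMI, 40.9% a PPARG UMI and 24.3% a ZNF423 UMI. These intervals cover counting error only.

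PDGFRA and PPARG were not seen more often in the same cells. At 5000 UMIs per cell, PPARG was detected in 13.2% of PDGFRA-positive and 13.1% of PDGFRA-negative cells of cluster 9 in library 1, and in 12.1% and 13.4% in library 2. MYOD1, the myoblast determination factor, was detected in 12.5% of PDGFRA-positive and 19.0% of PDGFRA-negative cells in library 1, and in 11.7% and 13.4% in library 2. Desmin (DES), the muscle intermediate filament, gave 20.9% against 30.0% and 18.2% against 26.7%. MYF5 gave 4.39% against 3.79% in library 1 and 1.62% against 4.86% in library 2. MYOD1 and DES were thus detected more often in cells without a PDGFRA UMI in both libraries and MYF5 in library 2 only, which is given as a description of single cells and was not tested.

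Transcripts of mature adipocytes were at or near 0. LEP had 0 UMIs in all 19096 cells. ADIPOQ had 3 UMIs in the whole culture and was detected in 0 of 1080 cells of cluster 9, which allows a share of cells with a detected UMI of up to 0.341% (exact binomial upper limit) and sets no limit on cells that hold the RNA. Of 12 mature adipocyte genes listed, 5 were tested against all other cells, and 1 was called higher and 1 lower (6.77% and 10.8% of all genes). ADRB3, the adipocyte beta adrenergic receptor, was the higher gene with 18 UMIs in cluster 9, and CIDEA, a lipid droplet protein of thermogenic fat, was the lower (log2 fold change -1.65).

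Myogenic transcripts were the counterpart. Of 25 myogenic genes tested, 0 were called higher and 23 lower against all other cells by edgeR, and DESeq2 gave the same counts (1 member was higher at an unadjusted p under 0.05). Of all genes tested by edgeR, 6.77% were called higher and 10.8% lower. The list had a median log2 fold change of -2.98 (-2.79 when the gene with no UMI in the cluster is set at 3 UMIs) against -0.04 for all genes tested. MYOD1 had levels of 0.678 and 0.464 in cluster 9 against 4.55 and 4.27 elsewhere (log2 fold change -2.98), and MYF5 had 0.135 and 0.126 against 1.07 and 0.999 (-3.02); cluster 9 ranked last of 15 for both. DES stood at 0.968 and 0.813 against 5.01 and 4.84 (-2.50), and MYOG, the driver of myoblast differentiation, at 0.324 and 0.197 against 2.29 and 2.32 (-3.17). Library 1 was above library 2 for each of these 4 genes within cluster 9, but both lay far below the other cells. MYMX, which encodes the fusion peptide myomixer, had 0 UMIs in the cluster. MYMK, encoding its partner myomaker, the slow troponin gene TNNI1 and TNNT2 were lower by 4.07, 4.19 and 3.92 log2 units. MEF2C (0.58) and MEF2A (-0.86) were the members not called, and the satellite cell factors PAX7 and PAX3 had 3 and 8 UMIs in cluster 9.

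Much of the MYOD1 and MYF5 RNA of cluster 9 lay in a small group of cells described below as sub-cluster 4, of which 89.5% were called doublets. With those 153 cells removed, MYOD1 was lower by 4.72 log2 units in place of 2.98 and DES by 3.06 in place of 2.50, while PDGFRA was 3.22 higher in place of 3.07 and PPARG 4.01 in place of 3.85. Against all other cells 950 genes were then called higher and 1561 lower.

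Genes of other cell types that muscle could contribute were examined next, and their part in the results was not tested. Among 8 endothelial genes tested, 3 were called higher and 1 lower. The shares of all genes, for this and the following lists, were 6.77% and 10.8%. PECAM1 had 32 UMIs, VWF 12 and CDH5 6 in the 1080 cells, TIE1 had none, and the list summed to levels of 0.102 and 0.106 against 0.0418 and 0.0454 in all other cells, mostly from the VEGF receptor gene FLT1. Of 7 pericyte genes, CSPG4 (log2 fold change 2.39) and HIGD1B (3.67, 18 UMIs) were higher and MCAM was lower (not called by DESeq2 or with equal weights for the other clusters), NOTCH3 was not called (-0.87), and RGS5 had 5 UMIs. The pericyte list summed to 1.10 and 1.13 against 0.565 and 0.595 in all other cells. Among 6 smooth muscle genes, CNN1, which encodes calponin, was higher (1.69); ACTA2, the most abundant, was not called (-0.15) and MYH11 had 10 UMIs. The smooth muscle list summed to 7.53 and 8.06, close to the 7.82 and 7.70 of all other cells. The glial genes SOX10 and FOXD3 had 0 UMIs, ERBB3 and S100B were lower, and NGFR, the nerve growth factor receptor, was higher (4.21). The leukocyte gene PTPRC had 0 UMIs, while CD14 was called higher (3.49, 36 UMIs), the 1 call among 4 immune genes tested. The immune list summed to 0.0444 and 0.0460 against 0.0237 and 0.0253 in all other cells. The tendon gene SCX had 0 UMIs and TNMD had 2, although the most abundant gene of that list, TNC, was present at 6.28 and 6.61. Of 4 tendon genes tested, 1 was called higher (0 of 5 with equal weights for the other clusters). The tendon list summed to 6.60 and 6.96 against 3.71 and 3.74 in all other cells. Of 7 cartilage and bone genes tested, ALPL, ACAN and SP7 were called higher, the first with 12 UMIs, and SOX9 had 8 UMIs.

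Among genes at 1 UMI per 10000 or more, those with the largest change in cluster 9 encoded secreted signals. CCL2, the monocyte chemoattractant, had levels of 5.03 and 4.64 in cluster 9 against 0.0703 and 0.0763 in all other cells, and 87.2% of its UMIs in the culture came from this cluster. CXCL5, a neutrophil chemokine, had 8.60 and 8.92 against 0.169 and 0.202, with 82.9% of UMIs. INHBA, which encodes the activin A subunit, had 3.80 and 3.39 against 0.0731 and 0.0813, with 82.8% of UMIs. The log2 fold changes were 6.01, 5.53 and 5.51, and their lowest values over 9 alternative settings were 4.11, 3.78 and 3.53. In each case both libraries of cluster 9 lay far from both libraries of the rest. Against cluster 7 alone the log2 fold changes were smaller, at 2.48 for CCL2, 2.11 for CXCL5 and 1.17 for INHBA.

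Follistatin (FST), the secreted antagonist of activin and myostatin, was high in the same cluster as INHBA, at 4.62 and 4.53 against 0.265 and 0.302 (log2 fold change 3.98). IL1RL1, the interleukin 33 receptor, had 1.11 and 1.30 against 0.025 and 0.0316 (5.38). SFRP2, a secreted modulator of Wnt signaling, had 1.57 and 1.99 against 0.0499 and 0.0666 (4.90). Biglycan (BGN), a small proteoglycan of the collagen matrix, had 3.25 and 3.16 against 0.0969 and 0.120 (4.85). These genes span ligands, a receptor and a matrix protein.

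The other leading genes were ESM1, a secreted proteoglycan also made by endothelium (4.72); HSPB7, a small heat shock protein of heart and muscle (4.16); CD248, or endosialin, a surface protein of stromal cells (4.08); UNC13D, a vesicle release factor (3.81); the mesenchymal cadherin CDH11 (3.46); the actin binding protein COTL1 (3.25); and brain creatine kinase, CKB (2.96). After thinning to 5000 UMIs, CXCL5 was detected in 82.3% of the cells of cluster 9, BGN in 71.5%, INHBA in 65.7%, FST in 62.7% and CCL2 in 62.1%. In cluster 12, the differentiated myocytes, the shares were 4.24% for CXCL5, 2.12% for BGN, 0.816% for INHBA, 4.24% for FST and 2.45% for CCL2. Cluster 12 was the cluster least like cluster 9 across genes (Spearman correlation 0.856).

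**Figure D2:**
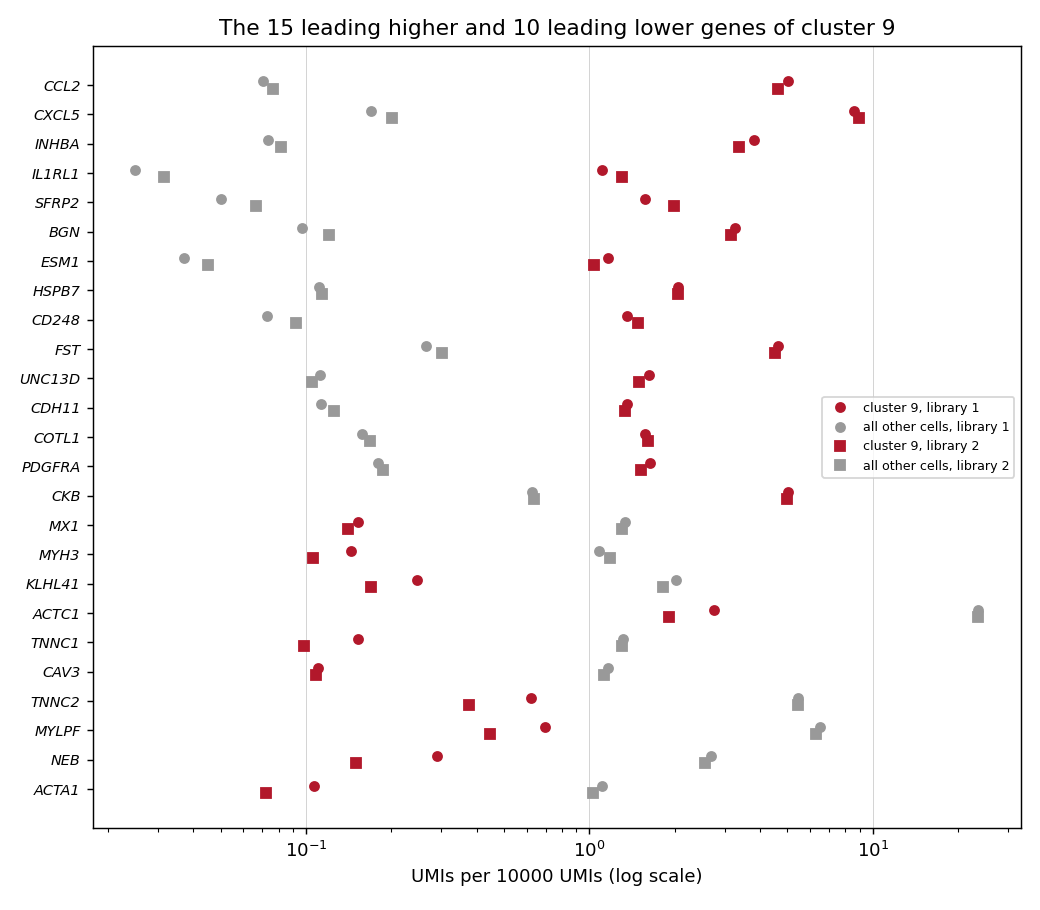
Levels of the 15 genes with the largest and the 10 with the most negative log2 fold change in cluster 9 against all other cells, among genes at 1 UMI per 10000 or more in the group where they are higher, in UMIs per 10000 UMIs on a log scale, with red symbols for cluster 9 and grey for all other cells in each library. CCL2 and CXCL5 in cluster 9 lie between 4.64 and 8.92 while the other cells stay below 0.21, and the ordering is turned round for the sarcomere genes.

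At the other end, among genes at 1 UMI per 10000 or more in all other cells, were genes of the contractile apparatus. Skeletal actin (ACTA1, log2 fold change -3.60), nebulin (NEB, -3.60), the myosin light chain MYLPF (-3.52), the troponins TNNC2 (-3.47) and TNNC1 (-3.40), cardiac actin (ACTC1, -3.37), KLHL41 (-3.23) and embryonic myosin (MYH3, -3.21) were all lower. CAV3, the muscle caveolin, was lower by 3.42 log2 units. MX1, an interferon-induced antiviral GTPase, was the remaining member of this group, at 0.152 and 0.140 in cluster 9 against 1.33 and 1.30 elsewhere (-3.20). NEB was 0.289 in library 1 and 0.149 in library 2 of cluster 9 against 2.69 and 2.56, so library 1 of the cluster was well above library 2 and both were below the other cells.

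Groups of genes listed by function, with earlier results of these data known, were then counted in the same comparison. Among 28 tested genes of FAP and mesenchymal identity, 13 were called higher and 2 lower, against 6.77% and 10.8% of all genes. The median log2 fold change was 1.11. The list summed to 179 and 180 in cluster 9, against 98.0 and 97.3 in all other cells and 186 and 177 in cluster 8, which ranked first. Dermatopontin (DPT), a matrix protein of universal fibroblasts, had 0.490 and 0.456 against 0.0122 and 0.0145 (5.11), and 78.5% of its UMIs lay in cluster 9. The microfibril gene MFAP5 (4.78) and PDGFRB, the second platelet derived growth factor receptor (4.26), were also higher. Vimentin (VIM), the most abundant member, had 149 and 150 against 77.6 and 77.0, a difference of 0.92 that was under 2-fold. PRRX1 (0.99), decorin (DCN, 0.43), lumican (LUM, 0.04) and THY1 (-0.68) were not called. DPP4 and PI16, markers of an upstream stromal progenitor, had 0 UMIs in cluster 9; DPP4 was called lower, although it had only 48 UMIs in the whole culture and was not called by DESeq2.

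Of 17 adipogenic transcription factors tested, 4 were called higher and 4 lower (6.77% and 10.8% of all genes), and the median was -0.17. Their summed level was 3.53 and 3.62 against 3.27 and 3.36 in all other cells, rank 7 of 15 clusters. The higher genes were PPARG, ZNF423, EBF2 and EBF1. EBF2, a driver of preadipocyte commitment, had 0.373 and 0.350 in cluster 9 against 0.0089 and 0.0096 (5.25), with 80.1% of its UMIs there. EBF1 (4.89) had 76 of its 100 UMIs there. Krüppel-like factors that promote adipogenesis went the other way, with KLF15 at 0 UMIs (its lower call was lost by DESeq2, with no filter and without sub-cluster 4), KLF9 lower by 2.56 and KLF5 by 2.33 log2 units, as did the thermogenic coactivator PPARGC1A (lower by 2.25). CEBPD, an early inducer of PPARG and the most abundant member, was 1.11 and 1.14 against 1.23 and 1.27 (-0.19, not called), and CEBPB had only 25 UMIs in the cluster.

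Of 15 inhibitors of adipogenesis tested, 3 were called higher and 2 lower (median 0.12), against 6.77% and 10.8% of all genes. The lower count was near its share of all genes. GATA2, which restrains PPARG in preadipocytes, had 0.131 and 0.130 against 0.0203 and 0.0200 (2.66). WISP2, which binds ZNF423 (3.68, and 1.43 at the lowest of 9 alternative settings), and the Wnt ligand WNT5A (1.17) were higher. DLK1, the preadipocyte factor known as PREF1, was lower, with 2 of its 433 UMIs in cluster 9, and KLF2 was lower by 1.90 log2 units (not called with the other clusters weighted equally). HES1, the most abundant member, was not called (-0.64).

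Genes for making and storing lipid were counted next. By edgeR and by DESeq2, only 1 of 18 tested genes for fatty acid and triglyceride synthesis was called higher and 0 were lower, with a median of 0.09 by edgeR. With no demand on fold and no adjustment, 9 were higher and 4 lower at p under 0.05, a criterion that 7770 of all 13205 genes passed. The called gene was SREBF1, the transcriptional regulator of lipogenesis, with 0.285 and 0.263 against 0.081 in each library of the other cells (1.73). Fatty acid synthase (FASN) was 1.14 and 1.24 against 0.827 and 0.790 (0.52), and ACACA (0.96), FADS2 (0.77), SCD (0.24) and ACLY (-0.47) were also not called. Thus the share called in this group, 1 of 18, lay near the 6.77% of all genes. It was 2 of 18 with Leiden clusters, with equal weights for the other clusters, without doublets or without sub-cluster 4. Of 14 genes for lipid uptake and lipid droplets, 2 were called higher and 2 lower (median -0.50), against 6.77% and 10.8% of all genes. There were 4 lower under Leiden clusters or without sub-cluster 4 and 3 lower without doublets. FABP5, a fatty acid binding protein, had 2.16 and 2.31 against 0.625 and 0.611 (1.82), and CIDEB (1.55) rested on 13 UMIs and was not called by DESeq2, with no filter or without doublets. The lipase MGLL (-2.46) and the lipoprotein receptor VLDLR (-1.39) were lower, and LPL (0.76), FABP4 (-0.90) and PLIN2 (-0.51) were not called. The fatty acid translocase CD36 had 4 UMIs.

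**Figure D3:**
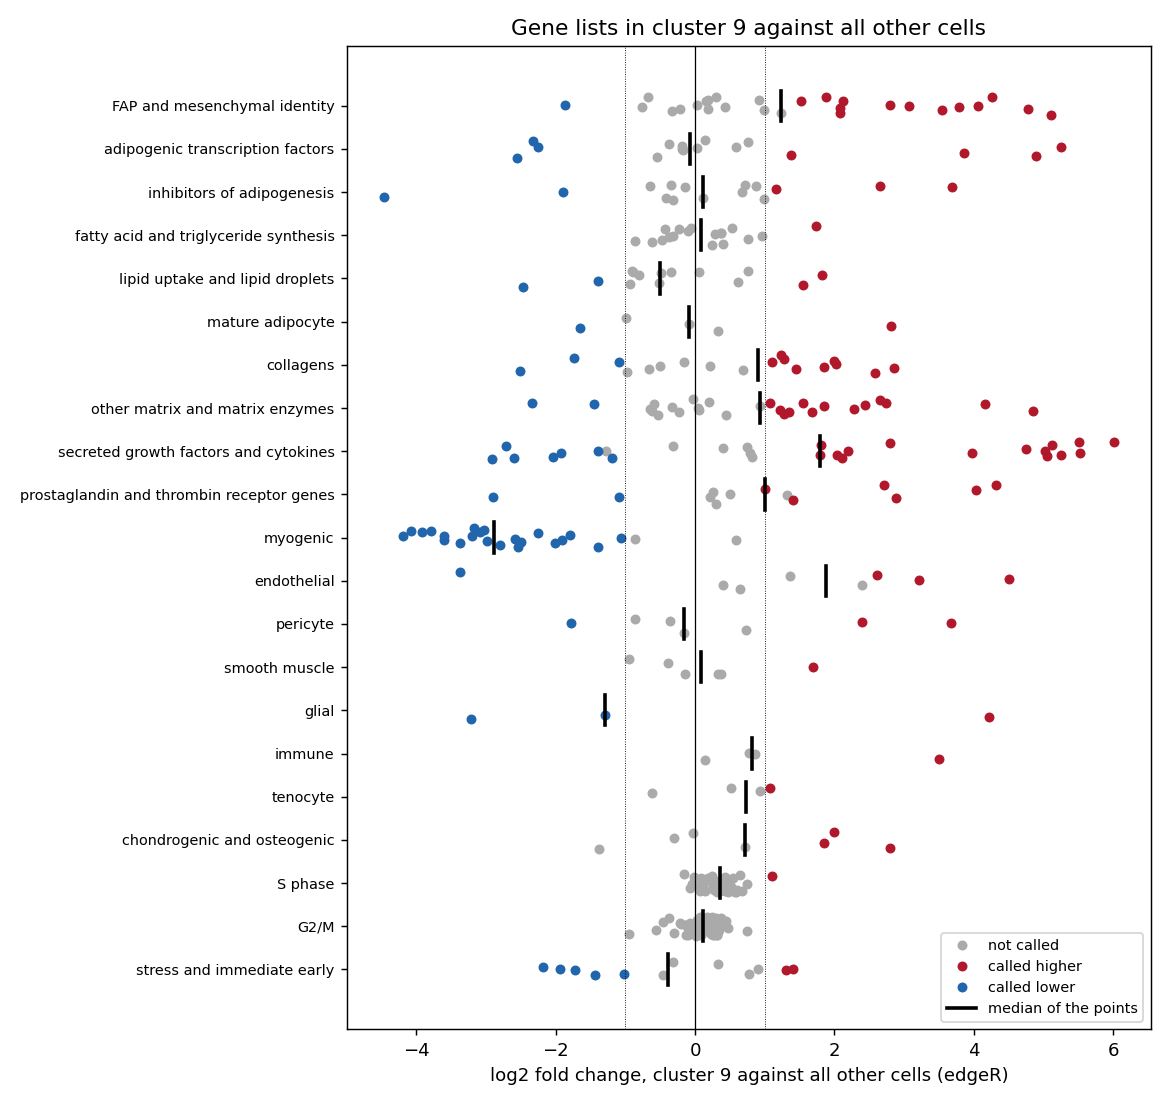
Log2 fold change of each listed gene in cluster 9 against all other cells by edgeR, 1 row for each list, with red points called higher, blue points called lower, grey points not called and a black bar at the median of the points; genes with 0 UMIs in cluster 9 are left out. Secreted factors lie mostly to the right and myogenic genes to the left, while adipogenic transcription factors are split and genes for fatty acid synthesis stay near 0.

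Matrix genes divided by type. Among 18 collagen genes, 9 were called higher and 3 lower (median 0.90), against 6.77% and 10.8% of all genes. With the other clusters weighted equally, however, the counts were 4 and 4 (median 0.62), against 699 and 1354 of all 13258 genes. The higher genes included those of the basement membrane and the microfibrils. COL4A1 had 2.87 and 2.90 in cluster 9 against 0.755 and 0.811 (1.85), COL4A2 was 1.99 log2 units higher, and the collagen VI genes COL6A3 (2.86), COL6A2 (1.28) and COL6A1 (1.10) were higher as well, as were COL16A1 (2.59) and COL8A1 (2.03). With equal weights the calls of COL6A1, COL6A2 and COL16A1 were lost. COL6A3 was sparse, at 0.115 and 0.151 against 0.0167 and 0.019. The fibrillar genes were not higher. COL3A1 was 17.5 and 17.9 against 36.6 in both libraries (-1.08, called lower) and COL11A1 was lower by 2.51, while COL1A2 was 25.9 and 28.4 against 50.8 and 53.1 (-0.97) and COL1A1 24.0 and 25.3 against 34.3 and 34.1 (-0.51), both not called. As a result, the summed collagen level of cluster 9, 82.4 and 87.5, ranked only 13 of 15 clusters and lay below the 134 and 137 of all other cells.

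Of 27 other matrix genes, 13 were called higher, 2 lower and 12 not called (median 0.94), where 6.77% and 10.8% of all genes were called higher and lower. Besides BGN, the higher genes included thrombospondin 2 (THBS2, 4.16) and the metalloproteinase inhibitor TIMP3 (2.74). TIMP2 (-2.33) and elastin (ELN, -1.45) were lower, and SPARC, the most abundant, was not called (-0.65).

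Among 28 secreted growth factors and cytokines tested, 15 were called higher and 7 lower (median 1.80), against 6.77% and 10.8% of all genes. The Wnt amplifier RSPO3 had 0.539 and 0.566 in cluster 9 against 0.0136 and 0.0146 (5.25), with 80.0% of its UMIs in the cluster. CXCL12 (5.04), the satellite cell activator HGF (5.03) and interleukin 6 (IL6, 4.75) were also higher. PDGFA, a ligand of PDGFRA, went the other way with 0.140 and 0.145 against 1.04 and 1.07 (-2.92), so the receptor was high where this ligand was low. FGF10 (-2.71) and IGF2, at 1.94 and 1.61 against 9.19 and 11.8 (-2.59), were lower. The summed level of the list was 31.9 and 31.3, against 14.1 and 16.8 in all other cells, and ranked behind cluster 13 (34.6 in each library).

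Prostaglandin synthesis genes and thrombin receptors gave 6 higher and 2 lower of 13 tested (4 and 2 with equal weights for the other clusters). The shares of all genes were 6.77% and 10.8%. The summed level of this list, 6.33 and 6.13, was below the 8.15 and 8.48 of all other cells. PTGS2, the inducible cyclooxygenase (4.32), and the receptors F2RL2 (4.02) and F2R (2.88) were higher. PTGIS, which makes prostacyclin, had 0.582 and 0.495 against 3.81 and 4.05 (-2.90), and PTGES3, the most abundant, was not called (0.26). Of 12 stress and immediate early genes, 5 were called lower and 2 higher, against 10.8% and 6.77% of all genes. Among the lower were FOS (-2.17), EGR1 (-1.94), ATF3 (-1.73) and FOSB (-1.44, not called by DESeq2). The fifth gene, JUN, was not called without TMM or with equal weights, and HSPB1 was not called (0.78).

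Few cell cycle genes differed by 2-fold between cluster 9 and the culture as a whole. RRM2, a subunit of ribonucleotide reductase (1.11), was the single called gene among 43 of S phase and 0 of 54 of G2/M passed the 2-fold criterion, with medians of 0.35 and 0.12. Over all genes tested, 6.77% were called higher and 10.8% lower. At an unadjusted p under 0.05 by edgeR, a criterion that 7770 of the 13205 genes tested passed in either direction, 30 S phase genes were higher and 0 lower (28 of the 43 passed the adjusted threshold without regard to fold). DESeq2 also called 0 G2/M genes, and by edgeR 23 were higher and 6 lower by that criterion. Summed levels were 35.3 and 34.1 against 26.9 and 26.5 for S phase and 73.8 and 67.3 against 66.5 and 65.4 for G2/M.

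The comparison with cluster 7, the other population that the study named from PDGFRA, asked where these 2 groups differ. Depth was very unequal. The 1298 cells of cluster 7 had a median of 1389 UMIs, and 990 of them had under 2000, against none in cluster 9. Of 10785 genes tested, 2010 (18.6%) were called higher in cluster 9 and 1880 (17.4%) lower. This split depended on TMM scaling, since 958 were higher and 3215 lower without it and the median of all genes moved from 0.05 to -0.46, so counts are given below both ways.

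PDGFRA did not separate them (log2 fold change 0.58, SE 0.17, adjusted p 0.0216 by edgeR and under 2-fold), nor did ZNF423 (0.83). PPARG was higher in cluster 9 (2.19), as was EBF2, at 0.373 and 0.350 against 0.123 and 0.148 (1.90). Of the 16 adipogenic transcription factors tested, 2 were higher and 5 lower with a median of -0.69 (2 and 8 without TMM, 2 and 2 without cells under 2000 UMIs), and their summed level was 3.57 in cluster 9 against 5.37 in cluster 7. SFRP2 (0.80) and CD248 (0.03), which led cluster 9 against the whole culture, were not called against cluster 7. INHBA (1.17), BGN (1.00) and FST (1.56) were called higher, but each call was lost without cells under 2000 UMIs. The calls of INHBA and BGN were also lost without TMM. CXCL5 (2.11) kept its call in each of 7 alternative settings. Genes of FAP identity gave 11 higher and 2 lower of 21 (9 and 5 without TMM, 7 and 2 without cells under 2000 UMIs). Those of the secreted list gave 10 and 5 of 25 (7 and 7 without TMM, 5 and 6 without cells under 2000 UMIs), with RSPO3 at 0.539 and 0.566 against 0.100 and 0.074 (3.20). Beside these lists, 18.6% of all genes were higher and 17.4% lower (958 and 3215 of 10785 without TMM). Without cells under 2000 UMIs, 1737 of all 10582 genes were higher and 1357 lower. CCL2 was called higher (2.48), but its levels in cluster 7 were 0.602 in library 1 and 1.78 in library 2, and the call was lost without cells under 2000 UMIs (1.83). TGFB2 (-2.65) and PDGFA (-2.35) were lower.

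Collagen and myogenic genes were among those lower in cluster 9 than in cluster 7. Of 18 collagens, 0 were called higher and 8 lower in cluster 9 by edgeR (14 lower without TMM, 8 without cells under 2000 UMIs, and 0 and 8 by DESeq2). Of all genes, 18.6% were higher and 17.4% lower by edgeR. At an unadjusted p under 0.05 by edgeR, 0 of the collagens were higher and 15 lower, a criterion that 6660 of all 10785 genes passed in either direction. The summed collagen level was 84.9 in cluster 9 against 640 in cluster 7. COL1A2 was 25.9 and 28.4 in cluster 9 against 251 and 256 in cluster 7 (-2.71) and COL3A1 17.5 and 17.9 against 175 and 177 (-2.81). COL11A1 (-3.59) and COL5A3 (-2.93) were also lower, the latter not called without cells under 2000 UMIs. COL4A1 did not pass (-0.96). Cluster 9 was thus the collagen-poor member of the pair. Myogenic genes were likewise lower, with 18 of 21 called (19 without TMM, 16 of 20 without cells under 2000 UMIs) and summed levels of 5.62 against 61.3.

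Among genes at 1 UMI per 10000 or more in cluster 9, those furthest above cluster 7 were FABP5, at 2.16 and 2.31 against 0.312 and 0.418 (3.10), HSPB7 (3.13), COTL1 (3.01), MARCKSL1, an actin regulator (2.78), and the unnamed ENSBTAG00000047229 (3.17). Among genes at that level in cluster 7, those furthest below were the unnamed ENSBTAG00000053626 (-6.07), NEB (-4.87), MYH3 (-4.73), CHRNG, the fetal acetylcholine receptor subunit (-4.52), and XIRP1 (-4.23). For fatty acid synthesis, 1 gene of 16 was called higher and 1 lower, against 18.6% and 17.4% of all genes. The counts were 0 and 5 without TMM, 0 and 2 without cells under 2000 UMIs (median -0.65), and 0 and 2 of 15 without doublets. At an unadjusted p under 0.05 by edgeR, 2 were higher and 7 lower, a criterion that 6660 of all 10785 genes passed in either direction. The main median was -0.40 and the summed level was 5.96 against 11.4 in cluster 7. SREBF1 (-0.60), FASN (-0.41) and SCD (-0.39) were not called. The part of depth in any of these differences was not tested beyond leaving out the shallow cells.

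**Figure D4:**
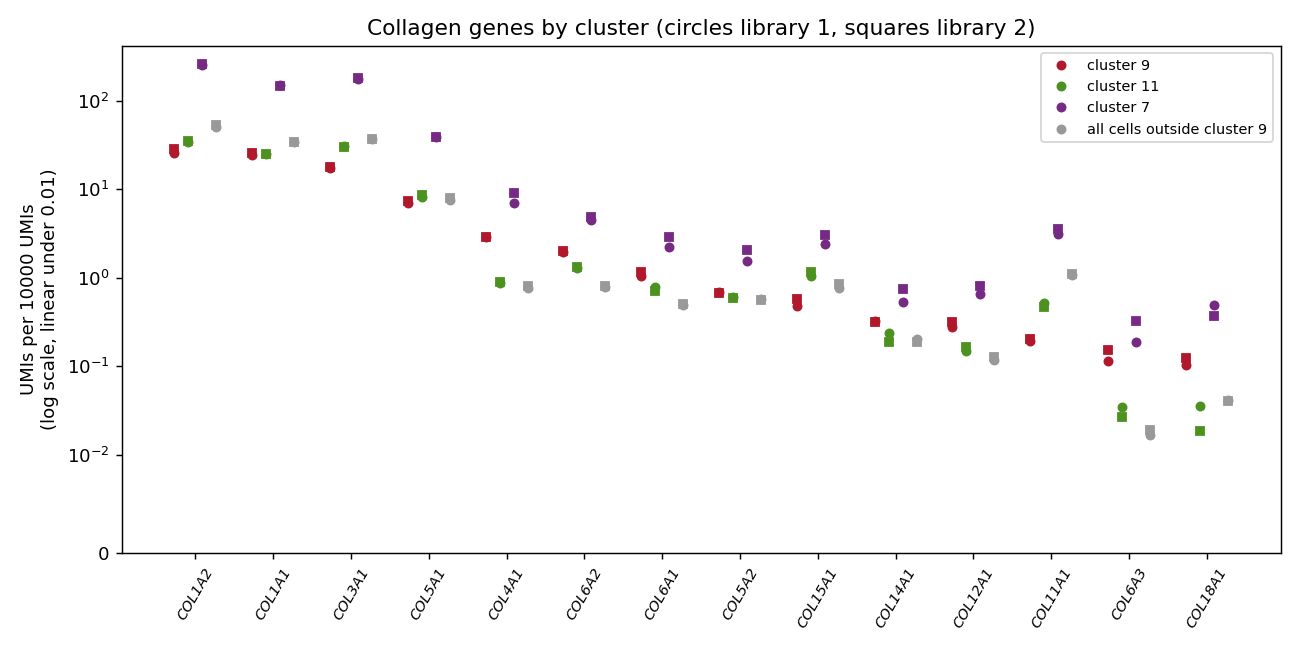
Levels of the 14 most abundant collagen genes of cluster 9 in UMIs per 10000 UMIs (log scale, linear under 0.01), in cluster 9, cluster 11, cluster 7 and all cells outside cluster 9, with circles for library 1 and squares for library 2. The fibrillar genes COL1A2 and COL3A1 are highest in cluster 7, at 251 and 256 and at 175 and 177, while COL4A1 in cluster 9 stays above cluster 11 and below cluster 7.

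Among clusters of comparable depth, cluster 11 was the most like cluster 9 over 12046 genes (Spearman correlation 0.967 across genes, which are not independent replicates and share the same libraries), followed by cluster 5 (0.958). Its 845 cells had a median of 17669 UMIs. Of 10936 genes, 572 (5.23%) were called higher in cluster 9 and 591 (5.4%) lower. Among genes at 1 UMI per 10000 or more in cluster 9, INHBA led with 3.80 and 3.39 against 0.0457 and 0.0428 in cluster 11 (6.37), and CCL2 (6.37), CXCL5 (5.98), SFRP2 (5.87) and BGN (5.64) followed. The FAP markers were all higher against this cluster, at 2.57 for PDGFRA, 3.22 for PPARG and 1.87 for ZNF423. Among genes at that level in cluster 11, MYF5 was furthest below (-2.99), followed by the complement inhibitor SERPING1, at 0.167 and 0.153 against 1.07 and 1.06 (-2.69), the acetylcholine receptor clustering gene RAPSN (-2.31), the protease HTRA3 (-2.25) and PTGIS (-1.99).

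Genes of FAP identity gave 12 higher and 0 lower of 22 tested against cluster 11 by edgeR (12 and 0 by DESeq2). At an unadjusted p under 0.05 by edgeR, 16 were higher and 2 lower, a criterion that 5046 of all 10936 genes passed in either direction. Secreted factors gave 15 called higher and 4 called lower of 25, and of all genes 5.23% were called higher and 5.4% lower. Collagens gave 6 and 2 of 17, with COL16A1 (2.53), COL6A3 (2.13), COL18A1 (2.06) and COL8A1 (1.91) higher, and other matrix genes 13 and 1 of 27. In the fatty acid synthesis list 1 of 17 genes was called higher, again SREBF1 (1.33), and 1 lower. The lower gene, LPIN1 (-1.33), was not called by DESeq2 or with no filter. Cluster 11 had more S phase RNA, 47.7 against 34.7 on the summed level, with 1 of 43 genes called lower in cluster 9, and less G2/M RNA, 56.0 against 70.5, with 2 of 54 called higher. Myogenic genes split into 4 higher and 4 lower of 17 (median 0.27). The counts were 2 and 5 without doublets (median -0.09) and also without sub-cluster 4 (-0.21). MYOG (1.29) and MYH3 (1.01) were among the higher, but without cells called doublets their signs turned (-0.069 and -0.36). MEF2C (4.18) and MYL4 (1.98) were called higher in each of 7 alternative settings.

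Cells of cluster 9 with and without PPARG were then compared, a division that the clustering had not been given. After thinning to 5000 UMIs, PPARG was detected in 77 of 586 cells in library 1 and 63 of 494 in library 2. Of 7554 genes tested, 0 were called in either direction by edgeR (0%), with 383 (5.07%) at an unadjusted p under 0.05, and DESeq2 also called 0 (34 at an unadjusted p under 0.05). CKB had the smallest adjusted p, 0.138, at 6.91 and 7.52 in PPARG-positive cells against 5.19 and 4.80 in negative cells (log2 fold change 0.53, SE 0.085). FST (-0.53), CXCL5 (0.33), MYOD1 (-1.12), EBF2 (0.10), SREBF1 (-0.15), FASN (-0.02) and PDGFRA itself (-0.02) were likewise not called. With a median SE of 0.299, small differences could not be seen at this depth, and a cell without a UMI may still hold PPARG RNA. Doublets were less frequent among PPARG-positive cells, at 5.19% against 16.5% in library 1 and 6.35% against 14.8% in library 2.

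With the library as a block, 2 genes were called higher in PPARG-positive cells. These were VIP, a neuropeptide (3.23), and EBD, an enteric beta-defensin (2.87). Both rested on few cells, since the 26 VIP UMIs of PPARG-positive cells in library 1 came from 3 cells, 17 of them from 1 cell, and 1 PPARG-negative cell held all 20 of its class. The 13 EBD UMIs of PPARG-positive cells in library 1 came from 2 cells.

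Finally, cluster 9 was divided on its own counts into 5 sub-clusters by Leiden clustering at a resolution of 0.5 (3 at 0.3 and 8 at 0.8). Their leading genes are what defined them and are given as a description. Sub-cluster 1 had 296 cells and led with ACACB, which encodes the mitochondrial acetyl-CoA carboxylase, CCL2 (7.54 and 6.50 against 4.28 and 3.96 in the rest of cluster 9), UNC13D, the mismatch repair gene MSH6 and ENSBTAG00000054548. Its S phase genes summed to 42.7 and 41.8. Sub-cluster 2 had 334 cells and led with the mitotic genes AURKA, TOP2A, ASPM, PLK1 and CENPF, with a G2/M sum of 107 and 104 and PDGFRA at 2.09 and 1.84.

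Sub-cluster 3 had 143 cells. SFRP2 was 7.15 and 6.85 there against 0.924 and 1.36 in the rest of the cluster, followed by smooth muscle gamma actin (ACTG2), the interferon-induced ISG12(B), gelsolin (GSN) and CKB (12.2 and 11.02). Its S phase and G2/M sums were the lowest of the 5, at 22.9 and 17.6 and at 27.2 and 22.5. PPARG was highest there, 0.572 and 0.410, and PDGFRA was 1.16 and 1.19. Collagens summed to 119 and 133 in it, above the 82.4 and 87.5 of cluster 9 as a whole. Thus the sub-cluster with the least cell cycle RNA had the highest PPARG and collagen levels of the 5 and more SFRP2 than the rest. PPARG there rested on 84 and 58 UMIs. Sub-cluster 2, with the largest G2/M sum, came next for PPARG (0.392 and 0.330), and collagens in sub-cluster 4 summed to 108 and 110.

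Sub-cluster 5, with 154 cells, led with TIMP3, FST (10.8 and 10.9 against 3.72 and 3.58), periostin (POSTN), FABP5 (4.70 and 5.24) and ENSBTAG00000037778. Its PPARG was 0.167 and 0.108, against 0.147 and 0.211 in sub-cluster 4, so their order turned between libraries. PDGFRA in sub-cluster 5 was 1.74 and 1.88, and its S phase sum was 44.8 and 43.5. Sub-cluster 4 was the group of 153 cells that were mostly called doublets, with a median of 35429 UMIs. It led with MYOD1, at 2.38 and 1.81 against 0.183 and 0.154, PTGIS, CDKN1C, TNNC2 and ACTC1. It held 76.8% of the MYOD1 UMIs, 67.8% of the MYF5 UMIs, 64.0% of the ACTC1 UMIs and 47.1% of the DES UMIs of cluster 9 with 20.7% of its UMIs in all, and its own PDGFRA level was lowest, 1.10 and 0.946. Doublet calls in the other 4 sub-clusters lay between 0.676% and 3.50%.

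**Figure D5:**
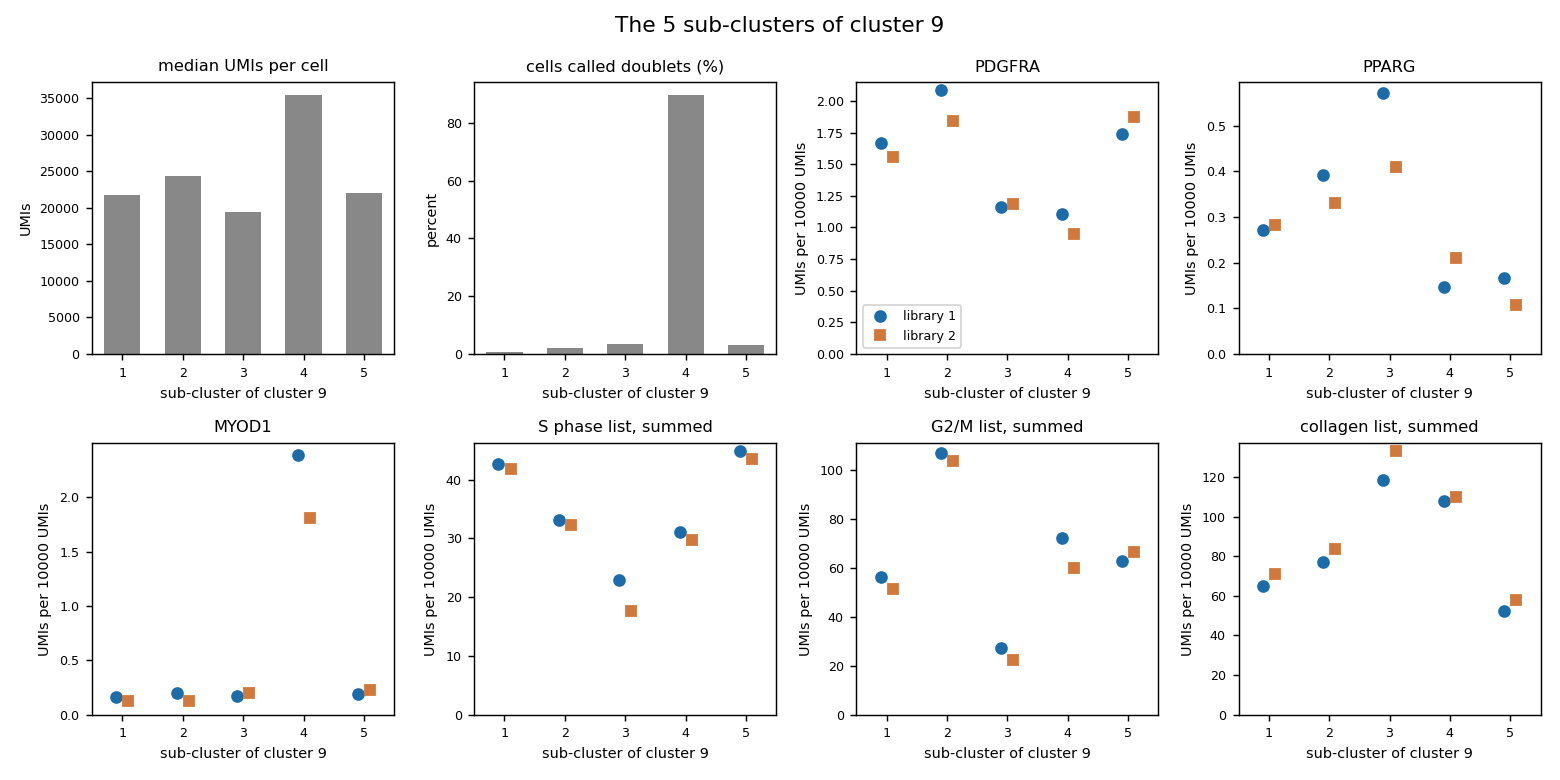
The 5 sub-clusters of cluster 9 by median UMIs per cell, percent of cells called doublets, and levels of PDGFRA, PPARG, MYOD1 and 3 summed gene lists in UMIs per 10000 UMIs, with bars over both libraries and circles and squares for libraries 1 and 2. Sub-cluster 4 stands apart in doublets (89.5%) and MYOD1, and sub-cluster 3 joins the lowest S phase and G2/M sums with the highest PPARG.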

How the data were processed

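Both libraries of the culture were prepared with the 10x Chromium 3′ kit. The authors used Cell Ranger 3.0.2 to align the reads to ARS-UCD1.2 with Ensembl genes, call cells, equalize mapped read depth and cluster the cells by graph. The deposited matrix holds UMI counts of 21867 genes and 19096 cells, made after reads were subsampled to that depth (145631299 UMIs in library 1 and 137818568 in library 2). The authors also deposited an average UMI score for each gene and cluster, and these averages fixed the cluster of every cell (0 of 252240 gene and cluster sums differed). Another 30 columns hold the authors' own fold changes and p-values and were not used. No doublet removal was described.

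UMIs were summed per library and compared with edgeR 4.0.16 (R 4.3.3; TMM; filterByExpr with a minimum count of 10; quasi-likelihood test; Benjamini-Hochberg adjustment), checked on simulated data. Alternatives were DESeq2 1.42.0, no filter, no TMM, a library block, equal weights for the other clusters, removal of doublets (Scrublet score above 0.25, in scanpy 1.11.5) or of shallow cells, and Leiden clusters. Library number pairs the sums, since both come from the same library: log2 ratios of library 1 to library 2 correlated at 0.633 between cluster 9 and all other cells, 0.420 for cluster 11, 0.200 for cluster 7 and 0.184 for the PPARG classes. Genes named were the study's markers, the 15 highest and 10 lowest at 1 UMI per 10000 or more (5 in each direction for the other comparisons), up to 4 called members and the most abundant of each list, and leading genes of sub-clusters. CXCL12, IL6, HGF, IGF2, VIP, EBD and further collagens, transcription factors and sparse cell type markers outside this rule were chosen after their values were seen. Members and lists were chosen with earlier results of these data known.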

Additional observations from a re-analysis of the deposited data

How the results depend on the processing

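Of 154 listed or leading genes called against all other cells, 133 kept the same call in each of 9 alternative settings. Weighting the other clusters equally took away the largest share of the rest, among them COL16A1, COL6A1, COL6A2, COL12A1 and COL18A1, so that 4 collagens were called higher and 4 lower in place of 9 and 3. Changes of genes that kept their calls could also shrink. The lowest log2 fold changes over the 9 settings were 3.22 for SFRP2 (4.90 in the report), 3.26 for BGN (4.85) and 2.33 for THBS2 (4.16). With 1 library left out, only a value without a test remained, from 3.01 to 3.13 log2 units for PDGFRA, 3.79 to 3.91 for PPARG and 1.22 to 1.52 for ZNF423, and counts of calls could not be made. Lower calls in the FAP identity list (2 in the report) became 0 with DESeq2, 1 with equal weights and 1 without doublets. Higher calls for fatty acid synthesis (1 in the report) became 2 with Leiden clusters, with equal weights, without doublets and without sub-cluster 4, the last chosen after seeing the data. Against cluster 7, dropping TMM gave 958 higher and 3215 lower genes. Between PPARG classes, 3 genes were called higher without the filter on low counts (VIP, EBD and DEFB7), 2 with the replicate block, and 1 (LRRN4CL) lower when cells were thinned to 10000 UMIs. The block changed no other count of calls by over 1.5 times. Against cluster 11, MYOG turned from 1.29 to -0.069 without doublets and -0.078 without sub-cluster 4, and MYH3 from 1.01 to -0.36 and -0.28. Detection shares followed depth by construction: thinned to 2000 UMIs, PDGFRA was found in 28.4% of cells, PPARG in 5.28% and ZNF423 in 2.13%, and without thinning in 91.8%, 40.9% and 24.3%. Sub-clusters numbered 3 at a resolution of 0.3 and 8 at 0.8. A Leiden clustering of all cells shared 931 cells with cluster 9, 86.2% of the cluster.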

Other observations

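Some further features of cluster 9 belong to no comparison above. It held 5.66% of the cells but 9.31% of all UMIs of the culture, and VIP, called with the library block between PPARG classes, had 266 UMIs in library 1 of cluster 9 and 25 in library 2.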
